A study of Mus musculus with 24 samples.

Results

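Stress regulator genes, 10 of the 35519 genes in the deposited files, were followed through sorted mouse microglia: Atf3, Atf4, Ddit3, Trib3, Xbp1, Cebpb, Id2 and the 3 Gadd45 paralogues Gadd45a, Gadd45b and Gadd45g. They were chosen by name, with the difference between phagocytosis and control microglia already known, so their values in that comparison describe them and test nothing. Comparisons by genotype and sex, and the division of a gene's reads among its transcripts, were not used by the rule that chose them. Of the 10 members 8 had enough reads to be tested; Gadd45a and Trib3 did not.

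RNA was sequenced from 24 libraries of 1000 microglia each, sorted from whole brain of C57BL/6 mice as Ly6C-CD11b+Fcrls+ cells. The mice were female or male and either wild type (WT) or NL4-/-, knockouts of neuroligin-4, a synaptic adhesion protein; the labels name no driver that would limit the deletion to a cell type. There were 2 control and 4 phagocytosis libraries for each combination of sex and genotype, and the phagocytosis cells carry no further description in the labels of what they took up or where. Ages are not given, and the knocked-out gene is not analysed here, so the knockout was not checked. Libraries were made by Smart-Seq2, which copies whole transcripts and marks neither strand nor single molecules.

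The genes belong to linked pathways. In the integrated stress response, kinases that sense misfolded protein, lack of amino acids, viral RNA or lack of haem phosphorylate the initiation factor eIF2, which slows most translation while the mRNA of Atf4 is translated more; the ATF4 protein then switches on amino acid transport and synthesis genes, Atf3, Ddit3 (which encodes CHOP) and Trib3, a pseudokinase that feeds back on ATF4. In the endoplasmic reticulum the sensor IRE1 splices Xbp1 mRNA to make the factor that raises chaperones. ATF3 is a bZIP repressor that damps inflammatory genes in macrophages, C/EBP-beta (Cebpb) is a bZIP activator of macrophage inflammatory and metabolic genes, the GADD45 proteins are small stress sensors that bind p38 and JNK pathway kinases and cell cycle proteins, and ID2 lacks a DNA-binding region and holds E proteins off DNA. Because ATF4 is set largely by translation and XBP1 by splicing, their mRNA level is only part of their activity.

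The promoters of Atf3, Gadd45b and Gadd45g are shown because the first 2 genes were far apart between the states while Gadd45g, a paralogue of Gadd45b, had like means in both. Sequences are from RefSeq on the mouse build GRCm38.p6, in the direction of each gene, with matched motifs in capitals and positions counted from the RefSeq transcription start. The Atf3 stretch (chr1:191183334-191183463, minus strand) runs from -130 to -1 and holds a match at -110 to TGATGNAA, the C/EBP-ATF response element bound by ATF4, on the opposite strand (the capitals give its complement), and at -10 a match to TTACGTCA, a near form of the cyclic AMP response element. The Gadd45b stretch (chr10:80929886-80930015, plus strand) runs from -205 to -76 with an E-box, CACGTG, at -185 and CCAAT boxes at -139 and -100. The Gadd45g stretch (chr13:51846513-51846621, plus strand) runs from -162 to -54 with an E-box at -142, a C/EBP-ATF element on the opposite strand at -101 and a CCAAT box at -78.
Atf3: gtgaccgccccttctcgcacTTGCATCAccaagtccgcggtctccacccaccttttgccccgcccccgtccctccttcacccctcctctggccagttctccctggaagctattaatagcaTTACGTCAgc
Gadd45b: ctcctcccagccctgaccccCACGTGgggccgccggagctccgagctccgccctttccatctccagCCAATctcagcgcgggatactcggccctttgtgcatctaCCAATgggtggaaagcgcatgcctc
Gadd45g: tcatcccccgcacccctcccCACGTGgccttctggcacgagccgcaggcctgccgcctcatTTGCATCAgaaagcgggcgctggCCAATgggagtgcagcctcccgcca

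All 10 members matched a RefSeq promoter, and both strands were searched. TGATGNAA was found in 3 of the 10 (Atf3, Gadd45g and Trib3) and in 3.97% of 32851 promoters of the same length. TTACGTCA was in Atf3 alone among the members and in 0.499% of all promoters. CACGTG was in 2 members and 7.15% of promoters, the C/EBP motif TTGCNNAA in 2 members (Gadd45a and Xbp1) and 10.8%, and CCAAT, which can lie within other motifs, in 7 members and 37.4%. TGACGTCA and TGACGTGG, the full cyclic AMP element and the unfolded protein response element, were in 0 members and in 1.79% and 0.676% of promoters. The match in Gadd45g has the same letters as the one in Atf3.

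Totals ran from 421107 to 1013797 reads per library, so a gene at 10 CPM (counts per 1000000 reads, TMM-normalised) rests on roughly 4 to 10 reads. Intervals given below cover counting error only, since amplified reads without molecular identifiers are not independent molecules. The 14 microglia markers were present in every library group, with a summed level of 34500 to 49000 CPM (here of the library total alone) in controls and 19800 to 46500 in phagocytosis libraries, and 0 of 14 were higher on average in phagocytosis. All 14 border-associated macrophage markers were higher in phagocytosis (summed 866 to 1730 in controls against 1420 to 2460), as were 11 of 12 monocyte markers (29.4 to 94.9 against 61.2 to 291). Most of the border-associated macrophage sum was Stab1, with means of 996 CPM in controls and 1470 in phagocytosis libraries. Markers at a low level differed by more: Pf4 had 0.733 and 12.9, Lyve1 0.248 and 4.73, Cbr2 1.4 and 11.9, and Mrc1 3.4 and 9.52. Among the monocyte markers Ly6c2 had a mean of 1.2 CPM in controls and 3.34 in phagocytosis libraries, in cells sorted as Ly6C-. Plac8 had 2.67 and 17.9, Cd44 had 5.23 and 67.9, and Ly6c1, the one not higher, had 0.42 and 0. Neuronal markers were higher in 9 of 11 (5.61 to 13.4 against 12.6 to 109), with Uchl1 going from 11 reads to 352, oligodendrocyte markers in 8 of 11 (127 to 193 against 180 to 391) and astrocyte markers in 9 of 10 (57.2 to 141 against 75.6 to 145). Fewer were higher among markers of neutrophils (6 of 11, 4.36 to 67.5 against 1.57 to 201), lymphocytes (5 of 14, 250 to 563 against 168 to 433) and endothelium (4 of 9, 18.5 to 35.2 against 17.7 to 68.4, with Cldn5 at 0 in every library). Transcripts resembling the mouse major satellite repeat took 4.07 to 23.3% of reads in controls and 1.52 to 16.3% in phagocytosis libraries, and over 20% in 3 controls (female NL4-/- 1, male WT 2 and male NL4-/- 1). Without those 3 controls the same 4 members were called between the states; the part of the marker genes in the results was not tested, and fewer cells of a kind and less RNA per cell cannot be told apart in such libraries.

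Phagocytosis and control microglia differed in 4 of the 8 tested members, all higher in phagocytosis: Gadd45b, Cebpb, Atf3 and Id2. Gadd45b was higher by 3.80 ± 0.397 (SE) on the log2 scale, Cebpb by 2.66 ± 0.611, Atf3 by 2.21 ± 0.221 and Id2 by 1.63 ± 0.170, averaged over the 4 sex and genotype groups. The others lay near 0, with Atf4 at 0.31 ± 0.110, Ddit3 at 0.19 ± 0.188, Xbp1 at 0.01 ± 0.140 and Gadd45g at -0.02 ± 0.156. In edgeR's quasi-likelihood test over 9803 genes, 13.6% had an adjusted p under 0.05 and 8.41% were called higher, and since the members were selected on this comparison their count of 4 is a description. By rank of the log2 fold change among those 9803 genes Gadd45b stood at 48, Cebpb at 120, Atf3 at 169 and Id2 at 280. Gadd45b, with at most 5 reads in a control, and Cebpb, with at most 4, passed the filter on low counts only through their phagocytosis libraries.

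**Figure D1:**
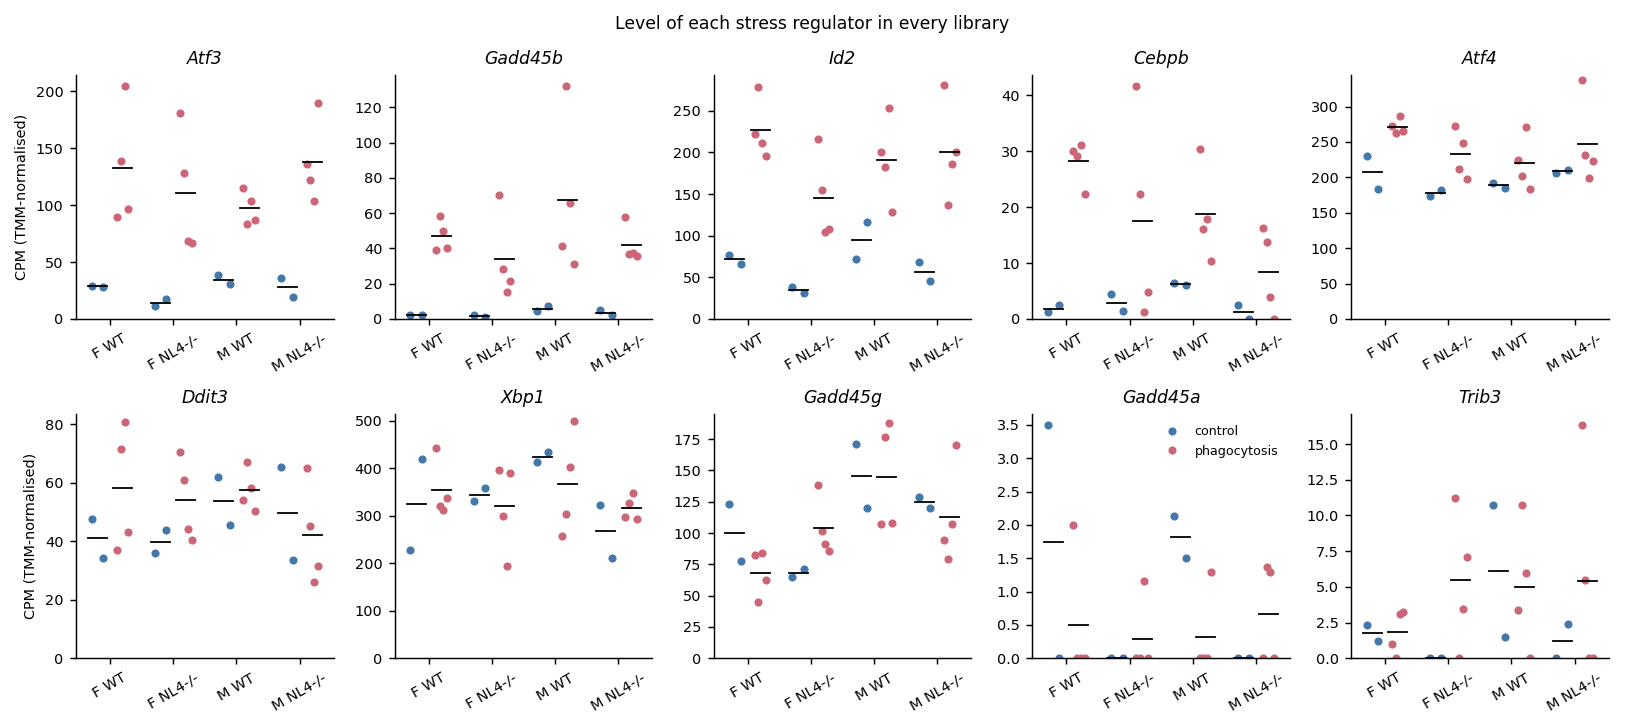
TMM-normalised CPM (y axis, linear, starting at 0) of the 10 members in each of the 24 libraries, by sex (F, M) and genotype on the x axis; each point is a library and the line is the group mean. Atf3 and Gadd45b in phagocytosis libraries lie above every control, as for 0.796% of the tested genes, whereas Xbp1 and Gadd45g overlap.

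Atf3 (chromosome 1, 191170296 to 191218039, minus strand, GRCm38) averaged 26.3 ± 9.46 CPM (SD, n = 8) in controls and 120 ± 42 (SD, n = 16) in phagocytosis libraries. The controls had 29 and 28.2 CPM in WT females, 11.2 and 17.7 in NL4-/- females, 38.4 and 30.3 in WT males, and 36.4 and 19.2 in NL4-/- males. The phagocytosis libraries had 89.2, 139, 205 and 96.2 CPM in WT females, 181, 128, 68.4 and 66.4 in NL4-/- females, 115, 83.3, 104 and 86.5 in WT males, and 136, 122, 104 and 190 in NL4-/- males. The lowest of the 16 was thus above the highest of the 8, as for 0.796% of the tested genes, and the female NL4-/- controls were the lowest of all. The log2 difference was 2.19 ± 0.412 in WT females, 2.85 ± 0.479 in NL4-/- females, 1.51 ± 0.420 in WT males and 2.29 ± 0.455 in NL4-/- males. Nearly all of its reads, 99.6%, fell on the transcript Atf3-201.

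Gadd45b (chromosome 10, 80930073 to 80932204, plus strand) was close to absent in controls, with 16 reads in all 8 libraries, against 520 in the 16 phagocytosis libraries. Its controls had 2.32 and 2.46 CPM in WT females, 2.25 and 1.36 in NL4-/- females, 4.27 and 7.57 in WT males, and 4.85 and 2.4 in NL4-/- males. The phagocytosis libraries had 39.1, 58.2, 49.7 and 40.1 CPM in WT females, 70.4, 28.5, 15.1 and 21.3 in NL4-/- females, 41.6, 132, 65.6 and 31 in WT males, and 58, 37, 37.5 and 35.6 in NL4-/- males. Every phagocytosis library was above every control, as for 0.796% of the tested genes, and male WT 2, at 132 CPM, stood highest. The gene passed the filter on low counts only through these phagocytosis libraries, so the separation is a description. Because the controls held 4, 2, 7 and 3 reads in the 4 groups, the pooled reads over the library totals give the ratio with its error: 19.4 (exact 95% interval 7.37 to 72.2) in WT females, 19.1 (5.13 to 160) in NL4-/- females, 11.4 (5.43 to 28.7) in WT males and 12.1 (4.04 to 59.8) in NL4-/- males. The 4 intervals overlap.

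The Gadd45 paralogues took different paths. Gadd45g, the most abundant, averaged 109 ± 35.9 CPM (SD, n = 8) in controls and 108 ± 40.8 (SD, n = 16) in phagocytosis libraries. Its controls had 123 and 77.3 CPM in WT females, 65.2 and 71 in NL4-/- females, 171 and 120 in WT males, and 129 and 120 in NL4-/- males. In phagocytosis it had 82.2, 44.8, 83.9 and 62.5 CPM in WT females, 138, 102, 91.6 and 85.4 in NL4-/- females, 107, 177, 188 and 108 in WT males, and 94.2, 79.5, 107 and 170 in NL4-/- males. The states overlapped in 3 of the 4 groups; in NL4-/- females all 4 phagocytosis libraries were above both controls, as for 12.1% of the tested genes, while in WT females 2 of the 4 were below both controls. Gadd45a had 5 reads in all controls and 6 in all phagocytosis libraries, a pooled ratio of 0.54 (exact 95% interval 0.137 to 2.23). Per transcript length (TPM), Gadd45b made up 3.62% ± 1.45 (SD, n = 8) of the summed level of the 3 paralogues in controls and 27.6% ± 9.99 (SD, n = 16) in phagocytosis, while Gadd45g made up 95.3% ± 2.05 and 71.7% ± 9.65.

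Id2 (chromosome 12, 25093799 to 25097140, minus strand) averaged 64.4 ± 27 CPM (SD, n = 8) in controls and 191 ± 54.4 (SD, n = 16) in phagocytosis libraries. The controls had 76.7 and 66.3 CPM in WT females, 38.2 and 31.4 in NL4-/- females, 72.6 and 117 in WT males, and 68 and 45.6 in NL4-/- males. The phagocytosis libraries had 222, 278, 211 and 196 CPM in WT females, 216, 155, 104 and 108 in NL4-/- females, 201, 183, 253 and 128 in WT males, and 281, 137, 186 and 200 in NL4-/- males. Within each sex and genotype the states did not overlap, as for 1.69% of the tested genes, but male WT control 2, at 117 CPM, was above 2 female NL4-/- phagocytosis libraries. The log2 difference was 1.66 ± 0.324 in WT females, 2.07 ± 0.364 in NL4-/- females, 1.00 ± 0.318 in WT males and 1.82 ± 0.352 in NL4-/- males.

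Cebpb (chromosome 2, 167688915 to 167690418, plus strand) was the least even of the 4. Controls had 14 reads in all, with 1.16 and 2.46 CPM in WT females, 4.5 and 1.36 in NL4-/- females, 6.4 and 6.06 in WT males, and 2.43 and 0 in NL4-/- males. Phagocytosis libraries had 30.1, 29.1, 31.1 and 22.4 CPM in WT females, 41.6, 22.4, 1.16 and 4.74 in NL4-/- females, 30.4, 16.1, 17.9 and 10.3 in WT males, and 16.3, 13.7, 3.88 and 0 in NL4-/- males. All 8 WT phagocytosis libraries were above the WT controls of their sex, as for 3.73% of the tested genes, whereas in each NL4-/- sex numbers 3 and 4 were at or near the control level. The pooled ratio was 16.3 (exact 95% interval 5.37 to 80.8) in WT females, 6 (1.92 to 30.3) in NL4-/- females, 3.31 (1.51 to 8.6) in WT males and 7.55 (1.22 to 312) in NL4-/- males. With phagocytosis numbers 3 and 4 alone set against the controls, its log2 difference was 1.47 and it was no longer among the genes called. Cebpb has 1 exon, and Tmem189 on the opposite strand overlaps its first part, from 167688915 to 167689822. The libraries carry no strand, and Tmem189 had 615 reads in all, so some of the reads may be of either gene.

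Called within single groups, 3 members were higher in WT females (Atf3, Gadd45b and Id2), where 0.581% of genes passed, the same 3 in NL4-/- females (0.459%) and in NL4-/- males (0.602%), and Gadd45b in WT males (0.326%). These are parts of the comparison the members were chosen on, so the calls and their counts describe the members and test nothing. The call of Gadd45b in NL4-/- males was lost under 15 of the 33 alternatives, among them length-scaled counts (log2 difference 2.55) and the loss of any 1 of its own 6 libraries, and in NL4-/- females under 5 of the 33. The other calls within groups were lost under 2 or 3 of the 33 each. DESeq2 gave Gadd45b in WT males no adjusted p and so did not call it, which is not counted among these losses. The difference of the state effect between genotypes was tested for each and none passed: for Atf3 it was 0.72 ± 0.443 (adjusted p = 1.00, edgeR), for Id2 0.61 ± 0.330 (adjusted p = 1.00, edgeR), for Gadd45b 0.01 ± 1.00 and for Cebpb -0.09 ± 1.46. Between the sexes it was -0.62 ± 0.445 for Atf3 and -0.71 ± 0.994 for Gadd45b (edgeR, adjusted p = 1.00 for each). In all 7 interaction comparisons 0% of genes passed in edgeR (190 to 467 genes, and 0 to 2 members, had an unadjusted p under 0.05), and DESeq2 called 0 to 3 genes and 0 members. For Gadd45g the state effect in NL4-/- over that in WT females was 1.13 ± 0.449 (adjusted p = 1.00, edgeR).

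**Figure D2:**
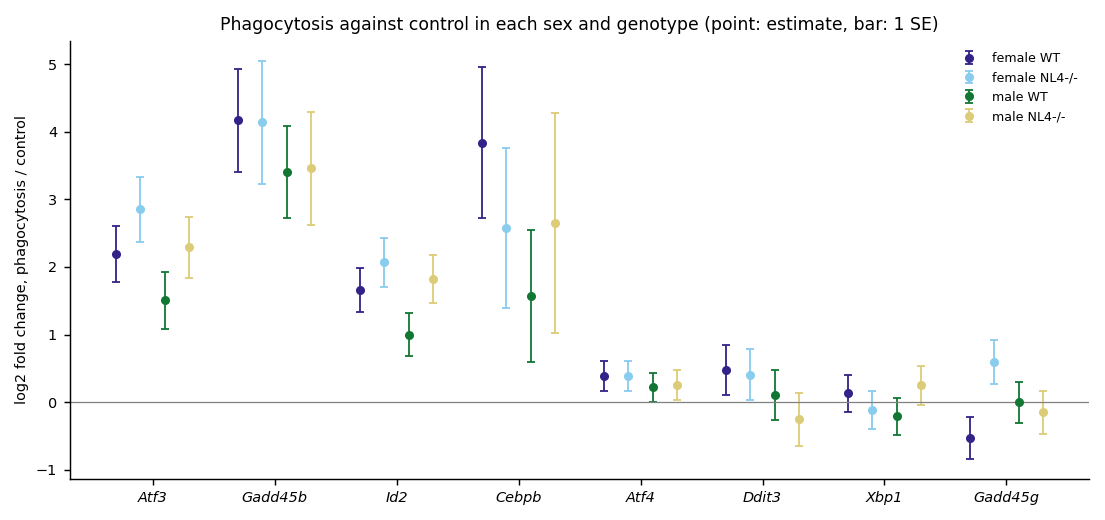
Log2 fold change of phagocytosis over control (y axis) of the 8 tested members in each sex and genotype; points are edgeR estimates and bars 1 standard error. Atf3, Gadd45b, Id2 and Cebpb are above 0 in all 4 groups, and the bars are widest for Cebpb, which had 14 reads in controls.

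Differences were small for the central factors of the integrated stress response. Atf4 averaged 195 ± 18.9 CPM (SD, n = 8) in controls and 243 ± 40.9 (SD, n = 16) in phagocytosis libraries. Its controls ran from 173 to 230 CPM with a median of 188 and its phagocytosis libraries from 183 to 337 with a median of 240, so that 9 of the 16 were above every control. By group its log2 difference was 0.39 ± 0.216 in WT females, 0.39 ± 0.221 in NL4-/- females, 0.22 ± 0.219 in WT males and 0.25 ± 0.221 in NL4-/- males, the same sign in all 4. Atf4 missed the call in the fit used here and was called under 14 of the 33 alternatives, DESeq2 among them.

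Ddit3 had a median of 44.5 CPM in controls (33.6 to 65.5) and 52.2 in phagocytosis libraries (25.9 to 80.8), with 4 of the 16 above every control. Its log2 difference was 0.48 ± 0.365 in WT females and -0.25 ± 0.392 in NL4-/- males, neither apart from 0 by the spread of the libraries. The end of Ddit3 overlaps Mars on the opposite strand, which had 2684 reads, so some of its reads may be of either gene. Trib3 had 10 reads in all controls and 49 in all phagocytosis libraries, a pooled ratio of 2.2 (exact 95% interval 1.1 to 4.88), with a read in 5 of 8 and 11 of 16 libraries. That interval leaves out the spread between libraries. Fitted without the filter on low counts, Trib3 was not called between the states (adjusted p = 0.277, edgeR).

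Xbp1 had the highest level of the 10 in controls and the same mean in both states, at 339 ± 84.9 CPM (SD, n = 8) in controls and 339 ± 74 (SD, n = 16) in phagocytosis libraries. Its range was 211 to 434 CPM in controls and 194 to 499 in phagocytosis libraries. The transcript set holds 4 forms of Xbp1 whose shortest intron has 300 bases. The much shorter piece that IRE1 removes is thus annotated as an intron in none of them. The spliced, active form therefore cannot be told apart here.

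Per transcript length, the order in controls was Xbp1 (146 TPM), Gadd45g (94.8), Atf4 (80.7), Id2 (57.4), Ddit3 (40.2), Atf3 (9.5), Cebpb (3.96), Gadd45b (3.22), Trib3 (1.63) and Gadd45a (1.41), as means over 8 libraries. In phagocytosis libraries it was Id2 (239 TPM), Xbp1 (186), Atf4 (124), Gadd45g (108), Ddit3 (56.1), Atf3 (53.7), Gadd45b (40), Cebpb (24.8), Trib3 (2.47) and Gadd45a (0.978), as means over 16. Neighbours in either order overlapped in range, except Ddit3 and Atf3 in controls, where the lowest Ddit3 value (21.4 TPM) was above the highest Atf3 value (20.4).

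Genes around the members were read from 6 lists. Among the kinases, eIF2 subunits and phosphatases of the integrated stress response, 1 of 17 rose and 0 fell: Eif2s1, the eIF2 subunit that is phosphorylated, rose by 0.53 ± 0.143 (adjusted p = 0.0119, edgeR). Of the ATF4 and CHOP targets 4 of 35 rose and 1 fell, which is 14.3% of the list called against 13.6% over all genes, a share near the background. The 4 that rose all act in amino acid transport or synthesis. Other genes of the list with such roles, named here after their values were seen, did not pass. Above 0 were Slc1a5 (0.44 ± 0.173 on the log2 scale), Slc7a1 (0.40 ± 0.178), Shmt2 (0.25 ± 0.211), Psph (0.24 ± 0.317) and Slc7a5 (0.09 ± 0.239). Below 0 were Slc38a2 (-0.43 ± 0.199), Slc1a4 (-0.32 ± 0.271), Pycr1 (-0.23 ± 0.428), Phgdh (-0.22 ± 0.131) and Aldh18a1 (-0.02 ± 0.176). Slc3a2, the shared chain of amino acid transporters, went from 822 ± 123 CPM to 1230 ± 220, the cystine transporter Slc7a11 from 12.6 ± 7.05 to 31.9 ± 17.8, the serine synthesis enzyme Psat1 from 84.5 ± 23.9 to 118 ± 29.3, and asparagine synthetase, Asns, from 19 reads in all controls to 127 in phagocytosis libraries (pooled ratio 3.01, exact 95% interval 1.85 to 5.16). The one that fell was Cebpg, a C/EBP partner of ATF4 named here after its values were seen, by 0.70 on the log2 scale (SE 0.231, adjusted p = 0.0394, edgeR). Gdf15, a stress cytokine also named afterwards, had the widest difference of the list without a call, with 4 reads in controls and 74 in phagocytosis libraries spread over 11 of 16. Asns, with at most 10.7 CPM in a control, and Gdf15, with at most 4.27, passed the filter only through their phagocytosis libraries. Their values are therefore a description.

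For the endoplasmic reticulum response 2 of 35 rose and 1 fell: Dnajb11, a chaperone partner, rose by 0.89 ± 0.191 (adjusted p = 0.00286, edgeR), Sec61b, of the protein channel, by 0.56 ± 0.156, and Edem2, which sorts misfolded glycoproteins, fell by 0.45 on the log2 scale (SE 0.141, adjusted p = 0.03, edgeR). The list of GADD45 partners and p53 targets had 5 of 24 up and 3 down, which is 33.3% called against 13.6% over all genes. The list was chosen with earlier results of these data known, so this share is a description. Plk2, a polo-like kinase, went from 4.54 ± 3.69 to 54.9 ± 25.1 CPM (3.70 ± 0.4 on the log2 scale), the cell cycle inhibitor Cdkn1a from 72.8 ± 23.9 to 234 ± 79.3 CPM, and the death effector Bax from 83 ± 17.1 to 156 ± 43.4 CPM. Plk2, with at most 11 CPM in a control, passed the filter on low counts only through its phagocytosis libraries. Mapk14, which encodes the p38 kinase that GADD45 proteins act through, fell from 117 ± 15.9 to 66.2 ± 17.8 CPM (adjusted p = 0.000412, edgeR). The other called genes, named here after their values were seen, were Aen (0.62 ± 0.137), Pcna (0.50 ± 0.169), Sesn1 (-0.65 ± 0.17) and Btg1 (-0.60 ± 0.179). This mixed list of GADD45 partners and p53 targets thus moved in both directions. Its median was 0.03 on the log2 scale against -0.005 over all genes.

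Of the E proteins and other ID genes 3 were expressed enough to test, and Tcf4, an E protein that ID2 binds, fell by 0.44 on the log2 scale (SE 0.122, adjusted p = 0.0155, edgeR). Among 24 C/EBP and other bZIP genes 2 rose: Nfil3 went from 6.66 ± 3.96 to 24.2 ± 14.6 CPM, and Fosl1, an AP-1 partner, from 1 read in all controls to 72 (pooled ratio 32.4, exact 95% interval 5.63 to 1300). Nfil3, with at most 12.1 CPM in a control, and Fosl1, with at most 2.43, passed the filter only through their phagocytosis libraries. Their calls are therefore a description. Medians of the other 5 lists were 0.10 for the kinases and machinery, 0.09 for the ATF4 and CHOP targets, 0.04 for the endoplasmic reticulum, -0.13 for the ID and E protein genes and -0.01 for the bZIP genes, all log2 fold changes. The share called was 5.88% for the kinases and machinery, 8.57% for the endoplasmic reticulum and 8.33% for the bZIP genes, against 13.6% over all genes. For the ID and E protein genes it was 33.3%, of 3 genes tested.

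**Figure D3:**
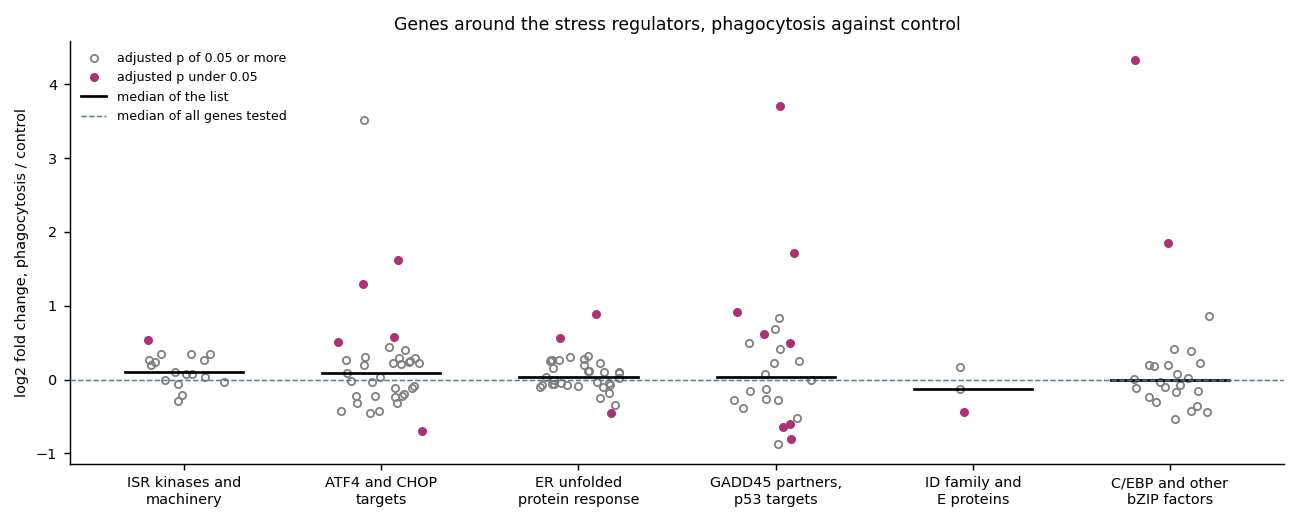
Log2 fold change of phagocytosis over control (y axis) for every tested gene of the 6 lists (x axis); filled points passed an adjusted p of 0.05, black lines are list medians and the dashed line is the median of all 9803 genes. List medians lie between -0.13 and 0.10, with single genes such as Plk2 and Fosl1 far above. Both of these passed the filter on low counts only through phagocytosis libraries.

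Across the 16 phagocytosis libraries, after each group's mean was subtracted, some members varied together. Pearson's r was 0.69 for Gadd45b with Id2, 0.66 for Atf4 with Id2, 0.62 for Atf3 with Ddit3 and 0.58 for Gadd45b with Cebpb, whereas Xbp1 lay between -0.20 and 0.21 with every other tested member. Among all other protein-coding genes the 3 most like Gadd45b were Il18bp (r = 0.93), Slamf7 (0.89) and Slfn2 (0.89), and those most like Atf3 were Glipr1, Psmd7 and Clip2 (0.85 each). Nfkbia was the gene most like Atf4 (0.91), Cndp2 most like Id2 (0.92), Ggnbp2 most like Cebpb (0.93), Map2k3, a p38 kinase kinase, most like Gadd45g (0.88), Irf7 most like Ddit3 (0.84) and Mphosph9 most like Xbp1 (0.78). These are descriptions over 16 libraries, the highest among all genes searched, and libraries also share depth and composition.

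The division of reads among transcripts differed between the states for Id2. GENCODE gives Id2 a spliced transcript of 3 exons, Id2-201, and a single-exon transcript, Id2-203, that runs on through the first intron of 288 bases (chr12:25095375-25095662, minus strand, GRCm38). The 2 are shown around the end of exon 1, with 25 bases of the exon in lower case and the 25 that follow in capitals, which are exon 2 in Id2-201 and intron in Id2-203.
Id2-201: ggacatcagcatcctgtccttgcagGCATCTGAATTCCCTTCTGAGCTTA
Id2-203: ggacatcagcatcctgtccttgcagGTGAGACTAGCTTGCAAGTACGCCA

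Id2-203 took 63.6% ± 15.4 (SD, n = 8) of Id2 reads in controls and 45.5% ± 6.25 (SD, n = 16) in phagocytosis libraries (exact permutation test, two-sided, p = 0.00102, adjusted p = 0.00357 over 7 transcripts). Controls had 66.6 and 70.9% in WT females, 69.6 and 31.1% in NL4-/- females, 61.5 and 53.5% in WT males, and 78 and 77.3% in NL4-/- males. The phagocytosis libraries ran from 32.3 to 55.9% with a median of 45.1%, and 6 of the 8 controls were above the highest of them; female NL4-/- control 2, at 31.1% of 23 reads, was below them all. Pooled over libraries, the spliced form went from 22.6 to 101 CPM of the library totals and the unspliced form from 39.7 to 83.7, so both were higher in phagocytosis and the spliced one by more. Without the 3 controls over 20% satellite-like reads the means were 61.5% (n = 5) and 45.5% (n = 16), and the exact permutation test gave p = 0.0107 and an adjusted p = 0.0447. Controls held 17 to 77 Id2 reads each. The transcript reads are expected counts, in which reads that fit both transcripts are divided between them by estimate. Reads across the junction or within the intron were not counted, and coverage along the gene was not examined.

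**Figure D4:**
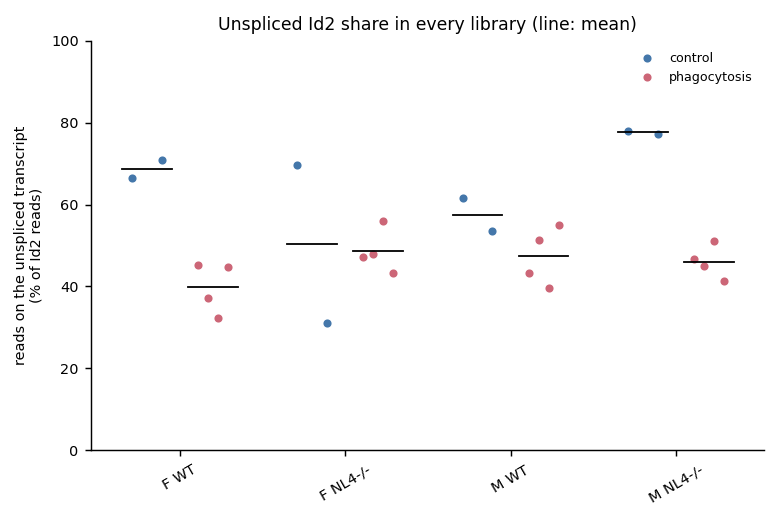
Share of Id2 reads on the single-exon transcript Id2-203 (y axis, percent) in each library, by sex (F, M) and genotype; points are libraries and lines group means. Controls reach 78%, whereas the phagocytosis libraries stay between 32.3 and 55.9%.

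None of the 5 transcripts of other members passed. Gadd45g-202, which retains an intron, held 19.4% ± 8.49 (SD, n = 8) of Gadd45g reads in controls and 19.5% ± 9.33 (SD, n = 16) in phagocytosis libraries (exact permutation test, p = 0.989). The main transcripts Atf4-201, Ddit3-201 and Xbp1-201 held 95.4, 94.4 and 90.1% in controls and 96.2, 93.2 and 89.9% in phagocytosis libraries (exact permutation test, adjusted p = 0.989 for each). Gadd45b and Cebpb had too few control reads for a share.

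Genotype moved no member past the threshold. In the 7 comparisons of NL4-/- with WT 0% of the 9803 genes passed in edgeR, and over all 4 sex and state groups 1 of the 8 members had an unadjusted p under 0.05. Id2 was that member, lower in NL4-/- by 0.59 on the log2 scale (SE 0.165, adjusted p = 0.530, edgeR). It averaged 34.8 ± 4.82 CPM in NL4-/- females against 71.5 ± 7.35 in female WT controls and 56.8 ± 15.8 against 94.6 ± 31.1 in male controls (SD, n = 2 each). In each sex both NL4-/- controls were below both WT controls, as for 3.79% of the tested genes. In phagocytosis it averaged 146 ± 52.1 against 226 ± 35.7 CPM in females and 201 ± 59.6 against 191 ± 51.9 in males (SD, n = 4 each), so the males did not share the direction. In the 7 comparisons 210 to 510 genes had an unadjusted p under 0.05 in edgeR, and DESeq2 called 0 to 12 genes and 0 members. Without the filter on low counts, over 26375 genes, Id2 passed for genotype (log2 difference -0.61, adjusted p = 0.0255, edgeR), and its adjusted p was above 0.05 under the other 32 alternatives.

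In phagocytosis libraries alone, Gadd45b was at 33.8 ± 25 CPM in NL4-/- females and 46.8 ± 8.99 in WT females, and at 42 ± 10.7 in NL4-/- males and 67.5 ± 45.2 in WT males (SD, n = 4 each). That is a mean difference of -0.58 ± 0.283 on the log2 scale (adjusted p = 0.944, edgeR). For Cebpb it was -0.94 ± 0.481 (adjusted p = 0.944, edgeR), which rests on NL4-/- numbers 3 and 4. Atf3 differed by 0.11 ± 0.204 and Atf4 by -0.03 ± 0.123, the smallest standard error of the 8. A missed threshold does not show that the genotypes are alike: for Gadd45b in controls, with 16 reads in all, the difference was -0.59 ± 0.946.

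Gadd45g was the member farthest from 0 by sex for its error. It was higher in males by 0.64 ± 0.157 on the log2 scale over all groups (adjusted p = 0.198, edgeR), where 0.0612% of genes passed and 0 of the 8 members did. Males were higher by 0.52 ± 0.351 in WT controls, 0.86 ± 0.377 in NL4-/- controls, 1.06 ± 0.254 in WT phagocytosis and 0.11 ± 0.252 in NL4-/- phagocytosis libraries. In WT phagocytosis, where 0.0204% of genes passed, all 4 males (107 to 188 CPM) were above all 4 females (44.8 to 83.9 CPM), as for 1.72% of all tested genes (adjusted p = 0.357, edgeR). In NL4-/- phagocytosis and controls 0.0102% of genes passed each, and in WT controls 0%, with 0 members in any of them. The genotype difference of Gadd45g in phagocytosis was 0.58 ± 0.258 in females and -0.37 ± 0.247 in males, a difference between the sexes of -0.95 ± 0.357 (adjusted p = 0.977, edgeR). Gadd45g passed for sex with DESeq2 (adjusted p = 0.0407), without the filter (0.0139) and with phagocytosis numbers 3 and 4 only (0.0494), and under none of the other 30 alternatives.

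**Figure D5:**
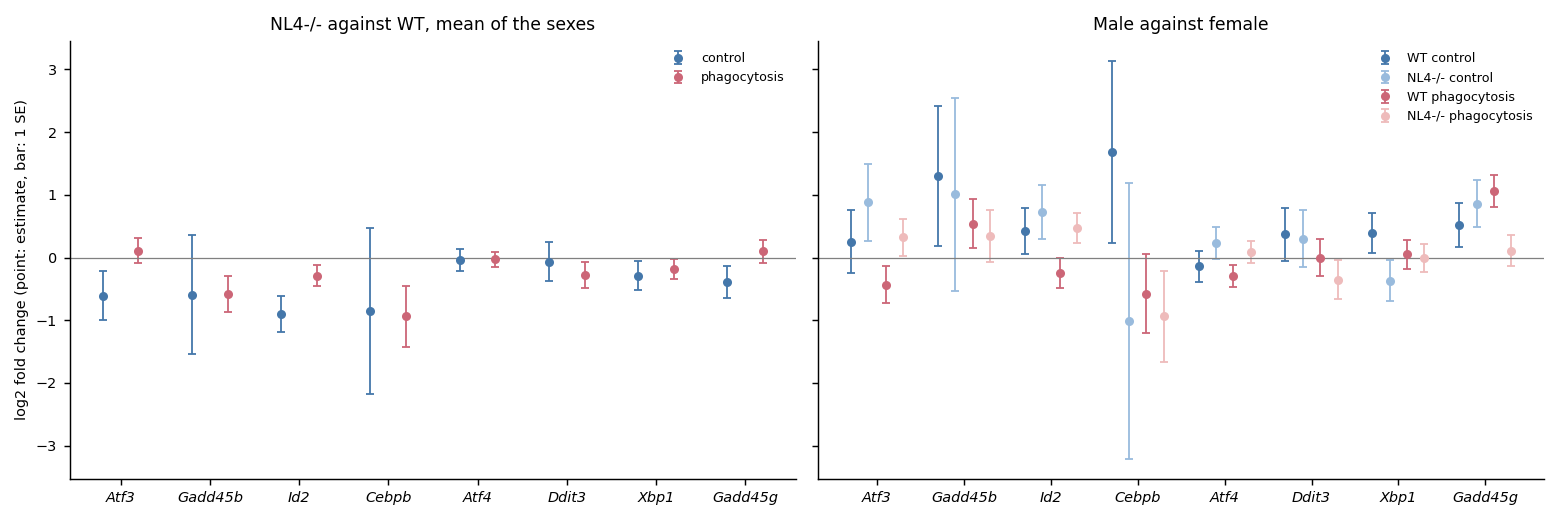
Log2 fold change (y axis) of the 8 tested members, NL4-/- over WT in each state as the mean of the sexes (left) and male over female in each genotype and state (right); points are edgeR estimates and bars 1 standard error. No member passed an adjusted p of 0.05; Gadd45g in WT phagocytosis, at 1.06 ± 0.254, is the farthest from 0 for its error.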

How the data were processed

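The authors deposited, per the file headers, a table per library with the expected counts of reads, TPM and effective length (in bases) of 116945 transcripts; the quantifier, its index and trimming: not given in the sources used here. Expected counts, as deposited, are not normalised, and every test used them. The authors' TPM take account of effective length and add up to one total in every library; here they served for levels between genes and, with the effective lengths, for length-scaled counts. Transcripts were matched to GENCODE vM21 (116023 of 116945), summed per gene and rounded. A second record of Ddit3, with 7.844 reads in all, was kept apart. edgeR 4.0.16 (TMM, expression filter with minimum count 10, robust quasi-likelihood F test) was fitted once to 24 libraries with 8 group means; Benjamini-Hochberg adjustment ran over 9803 genes, threshold 0.05. Standard errors are worked back from the F statistic. The design text calls libraries biological replicates without tying each to an animal, so p-values measure the spread between these libraries, which may be technical. The members and lists were chosen with earlier results of these data known. Lists name up to 4 called genes of at least 5 CPM by smallest p; likeness used log2 CPM with a prior count of 2. Transcript shares needed 10 reads and used exact permutation tests over all assignments. Alternatives were another normalisation, DESeq2 1.42.0, no filter, a replicate block, length-scaled counts, other subsets and each library left out. The fit was also run on simulated independent libraries, with changes set only in genes of higher counts. That setting does not cover genes with few control reads, such as Gadd45b and Cebpb.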

Additional observations from a re-analysis of the deposited data

Results flagged for a closer look

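Gadd45b in male NL4-/- phagocytosis 1 stood at 58 CPM, apart from the other 3 libraries of its group, which lay close together with the nearest at 37.5; the gap was 0.912 of the group's range, above Dixon's critical value for 4 libraries. It was 1 of 32 groups of 4 examined, and chance alone sets apart about 1 in 20. It was still below male WT phagocytosis 2, at 132 CPM.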

How the results depend on the processing

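The 4 members called between the states, Atf3, Gadd45b, Id2 and Cebpb, were called again under all 33 alternatives, except Cebpb with phagocytosis numbers 3 and 4 only; a count of 4 or 5 members came with any library left out (the addition was Atf4). Called members summed over the 4 single groups numbered 10, and 3 without the 3 control libraries over 20% satellite-like, which leaves 3 of the groups with 1 control; the lone control is then assumed to vary like the other groups. For all genes the count of 1332 between the states became 410 without those controls (330 higher and 80 lower), 782 with phagocytosis numbers 3 and 4 only and 781 without female WT control 2; with a library left out it ran from 781 to 1508. No member was called for genotype, and 1 was without the filter (Id2). For sex the count of 0 became 1 with DESeq2, 2 without the filter and 1 with phagocytosis numbers 3 and 4 only (Gadd45g in each). No interaction was called in members under any alternative. Over all tested genes together no pairing by replicate number was seen: the mean correlation of deviations of same-numbered libraries was -0.000 (-0.141 to 0.176), and 6 of 24 correlated best with their own number. An effect shared by number on a part of the genes was not tested. With a replicate block 5 members and 1646 genes were called between the states. Of 990 single-gene values recomputed 921 kept direction and call, 41 lost the call, 28 gained one and 0 reversed. A call left without an adjusted p was counted as kept, as for Gadd45b in WT males with DESeq2. Depth limits Gadd45a, Trib3 and the control levels of Gadd45b and Cebpb.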
